A study of Mus musculus with 2 samples.

Results

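The proteasome is the protease complex that degrades ubiquitin-tagged proteins, and the genes described here encode its subunits, activators and assembly factors. They were chosen by name, as all genes whose symbol begins with Psm, a letter from a to g and a digit. The rule gave 50 of the 19505 genes named in the value table. They were measured in sorted mouse lung cells positive for SPC/GFP and for EpCAM, with 1 Clariom S Mouse array for control mice that breathed air for 3 months and 1 array for mice that breathed smoke for 3 months. SPC commonly stands for surfactant protein C, made by alveolar type 2 cells, and GFP is the green fluorescent reporter used in the sort. EpCAM is an epithelial surface protein. The sources used here do not state strain, age, sex, the promoter of the reporter or how many animals stand behind each array. Since each group is 1 array, neither an SD nor a p-value can be given, and every difference is one between these 2 samples. The number of arrays limits the precision.

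A barrel of stacked rings forms the core particle of the proteasome. Outer rings of alpha subunits gate the barrel, and inner rings of beta subunits carry the peptidase sites. A regulatory particle, whose base holds a ring of ATPases and whose lid removes ubiquitin, unfolds substrates and feeds them in. In cells exposed to interferon gamma, Psmb8, Psmb9 and Psmb10 can replace the catalytic beta subunits during assembly to make the immunoproteasome. Psme1 and Psme2 form the PA28 activator cap. The TAP transporter carries the peptides made in this way into the endoplasmic reticulum, where they are loaded onto MHC class I molecules. Alveolar type 2 cells secrete surfactant, and epithelial cells of many tissues can switch on the inducible subunits when they are inflamed.

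The promoter stretches of 3 interferon-inducible members are shown because the members of the inducible set had unequal differences. They come from RefSeq (GRCm38.p6) and hold the 250 bases before the annotated start, 5′ to 3′ on the strand of the gene. Capitals mark a match on either strand to GAAANNGAAA (the letters of an interferon regulatory factor element), TTCNNNGAA (an interferon gamma-activated site, called GAS), TGACNNNGC (an antioxidant response element), CCAAT or CCGGAAG (an ETS factor site). The Psme1 stretch is chr14:55578244-55578493 on the plus strand and holds no match, that of Psmb8 is chr17:34197945-34198194 on the plus strand with 1 match, TTCNNNGAA, and that of Psmb9 is chr17:34187331-34187580 on the minus strand with 1 match, CCAAT.
Psme1: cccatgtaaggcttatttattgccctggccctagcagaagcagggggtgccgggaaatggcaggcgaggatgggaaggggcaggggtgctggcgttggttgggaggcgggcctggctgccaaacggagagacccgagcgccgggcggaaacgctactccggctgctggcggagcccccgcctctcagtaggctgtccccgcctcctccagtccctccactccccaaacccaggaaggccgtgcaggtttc
Psmb8: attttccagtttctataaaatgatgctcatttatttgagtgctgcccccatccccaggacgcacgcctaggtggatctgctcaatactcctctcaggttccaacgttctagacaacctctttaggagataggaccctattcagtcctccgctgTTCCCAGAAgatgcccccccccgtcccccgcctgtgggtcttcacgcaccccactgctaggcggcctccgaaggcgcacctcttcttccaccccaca
Psmb9: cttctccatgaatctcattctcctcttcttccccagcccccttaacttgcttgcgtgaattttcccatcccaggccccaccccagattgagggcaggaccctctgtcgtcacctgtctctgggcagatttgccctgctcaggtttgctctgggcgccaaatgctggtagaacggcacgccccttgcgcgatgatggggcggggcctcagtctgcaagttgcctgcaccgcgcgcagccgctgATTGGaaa

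Promoter windows of 300 bases (250 before and 50 after the start) were found for 42 of the 50 members, and GAAANNGAAA occurred in 5 of them. They are shown because the 3 members with the highest differences in this group of 5 also stood among the 5 highest of the proteasome genes above the level filter (a log2 signal of 4.57 on the brighter array, the median of all values). Each line gives 30 bases with the match in capitals. The Psme1 site (chr14:55578493-55578522, plus strand) begins at position 10 after the start, and the Psmg4 site (chr13:34162969-34162998, plus strand) begins at position 16 after it. The Psmd4 site (chr3:95042675-95042704, minus strand), the Psmb3 site (chr11:97703261-97703290, plus strand) and the Psmd9 site (chr5:123228021-123228050, plus strand) begin 80, 163 and 159 bases before the start. The strand given in each coordinate is that of the gene.
Psme1: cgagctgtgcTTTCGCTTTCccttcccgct
Psmd4: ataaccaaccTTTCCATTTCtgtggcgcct
Psmb3: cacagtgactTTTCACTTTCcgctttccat
Psmd9: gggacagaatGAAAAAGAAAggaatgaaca
Psmg4: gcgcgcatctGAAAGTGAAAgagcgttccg

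The log2 differences, smoke minus air, of these genes were 1.32 for Psme1, 0.62 for Psmd4, 0.52 for Psmb3 and 0.01 for Psmd9. Psmg4 was below the level filter on both arrays. Among 8473 genes above the filter with a promoter window, the 313 with this motif had a median difference of 0.04 and the 8160 without it a median of 0.06. The motif stood in 10.3% of the 39 proteasome genes above the filter with a window and in 3.69% of all such genes. A match describes letters and is not a binding site.

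**Figure D1:**
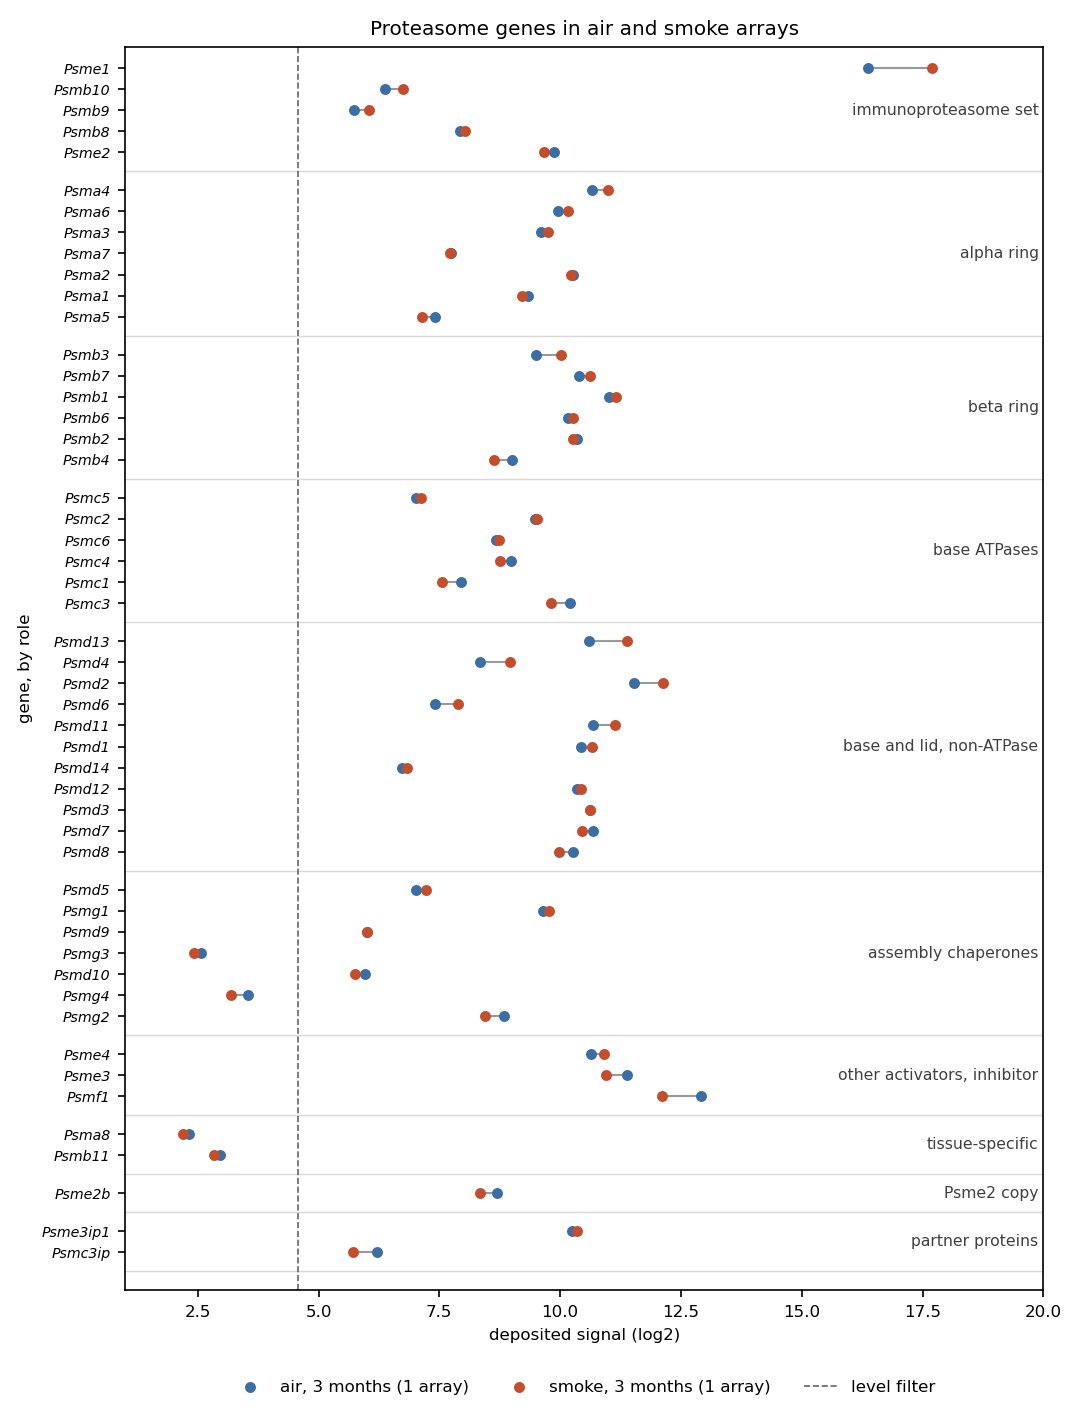
Deposited log2 signal (horizontal axis) of each of the 50 genes (vertical axis, grouped by role) on the air array (blue) and the smoke array (orange), with 1 array each and a dashed line at the level filter of 4.57. The gap is widest for Psme1, from 16.38 to 17.70, and 4 genes lie left of the filter on both arrays.

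The proteasome genes as a whole differed little between the arrays, and 1 gene stood apart. Psme1, the alpha subunit of the PA28 activator, had a log2 signal of 16.38 on the air array against 17.70 on the smoke array, which is 1.32 on the log2 scale or 2.50-fold on the deposited scale. It was the 1 member at least 2-fold higher in the smoke array, and 0 members were at least 2-fold lower. Of the 10419 genes that passed the level filter, 3.94% were higher by 2-fold or more and 2.48% were lower by as much. Of the 50 members 46 passed the filter, each on both arrays. Psmg3, Psmg4, Psma8 and Psmb11 did not, and their differences are described only as values.

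At 1.5-fold, 4 of the 46 were higher (Psme1, Psmd13, Psmd4 and Psmd2) and 1 was lower (Psmf1), against 14.5% and 9.19% of all genes above the filter. The other 41 were within 1.5-fold. The median log2 difference was 0.095 over the 46 and 0.05 over all 50. It was 0.06 over all genes above the filter and 0.09 over the 6323 genes of like level, whose mean signal lay between 5.98 and 11.66. Of the 46, 27 were higher and 19 lower in smoke, and 54.3% of all genes above the filter were higher. Under quantile normalization of the arrays 17 (37.0%) were higher, 26 lower and 3 equal, where 48.7% of all genes above the filter were higher. With each difference centred on the median of genes of like level 20 (43.5%) were higher and 26 lower, where 49.2% of all genes were higher. In all, 10 of the 50 members lost or turned their direction under one of these scalings, each with a deposited difference of 0.13 or less.

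Most proteasome genes lay close to other genes of their level. Of the 46, 36 (78.3%) lay within 1 robust SD, a scaled median absolute deviation, of the median difference in their own level bin, against 66.0% of all genes above the filter. Beyond 2 robust SD lay 2 of them, Psme1 and Psmf1, 4.35% against 7.74% of all genes. This spread mixes measurement error with real differences and does not replace replicates.

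**Figure D2:**
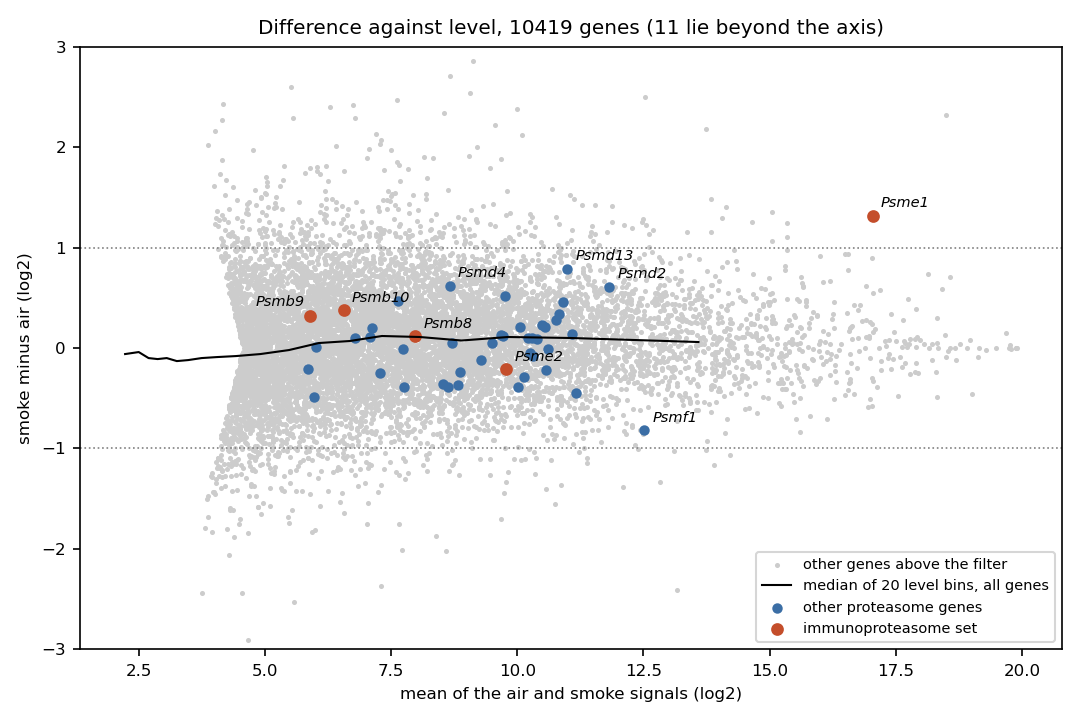
Smoke minus air (log2, vertical axis) against the mean of both log2 signals (horizontal axis) for 10419 genes above the filter (grey, 11 beyond the axis), other proteasome genes (blue) and the immunoproteasome set (orange). The black line is the median of 20 level bins over all genes and the dotted lines mark 2-fold. Psme1 lies above the upper dotted line at 1.32 and Psmf1 is the lowest proteasome gene at -0.82.

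The 5 genes of the inducible set differed among themselves. Their median log2 difference was 0.32, with 4 higher, 1 lower and 1 past 2-fold in smoke. The 41 other members above the filter had a median of 0.05 and 0 past 2-fold. Psmb10, the inducible trypsin-like subunit, stood at 6.37 in air against 6.75 in smoke, differing by 0.38. Psmb9, which takes the place of the caspase-like subunit Psmb6, stood at 5.73 and 6.05, differing by 0.32. For Psmb8, the inducible chymotrypsin-like subunit, the signals were 7.92 and 8.04, differing by 0.12, or by 0.00 under quantile normalization. Each of these 3 differences was smaller than the robust SD among the 500 genes nearest in level, which was 0.47 for Psmb10, 0.54 for Psmb9 and 0.44 for Psmb8.

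The subunits that the inducible forms replace are measured in part. Psmb7, the constitutive trypsin-like subunit, stood at 10.38 in air and 10.61 in smoke, and the difference of Psmb10 exceeded that of Psmb7 by 0.15. Psmb6, the caspase-like subunit, stood at 10.17 and 10.27, and the difference of Psmb9 exceeded it by 0.22. Both gaps are under the spread of single genes. Psmb5, the chymotrypsin-like partner of Psmb8, was not analysed here.

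The differences of the PA28 cap subunits were opposite in sign, that of Psme2 within the spread of genes of its level. Psme1 was 2.50-fold higher in smoke, while Psme2, the beta subunit that alternates with it in the ring, stood at 9.88 in air against 9.67 in smoke, differing by -0.21. The gap between these differences was 1.53 on the log2 scale. That of Psme2 was smaller in size than the robust SD among the 500 genes nearest to Psme2 in level, 0.44. Of those genes 21.2% had a difference at least as low. Among the 500 genes nearest to Psme1 in level, whose mean signals ran from 13.55 to 19.91, 6 had a difference at least as large on the higher side, and their robust SD was 0.34. In smoke Psme1 was 2.23 under the upper limit of the deposited scale, 19.93. Some of the 500 genes nearest to Psme1 lay close to that limit, such as Etv5 at 19.91 on both arrays. Such genes had little room to be higher, so the 6 and the robust SD may be too small. Psme2b, a copy of Psme2 whose probes may also read Psme2, stood at 8.70 and 8.34, differing by -0.36. Each of the 50 members rests on 1 entry of the table, so no second entry could check Psme1. Its level lay far above that of Psme2, and the mean signals of the 41 members outside the inducible set reached at most 12.51. Whether its probes also read other transcripts was not tested.

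Neighbouring genes were read in the RefSeq gene order, which was used here for order and names only. On chromosome 14 the order is Psme1, Emc9, Psme2, Rnf31, Irf9. Emc9, a subunit of a membrane protein insertion complex, stood at 7.25 in air and 7.77 in smoke. Rnf31, the catalytic subunit of the linear ubiquitin ligase, stood at 7.05 and 7.08, and Irf9, the DNA-binding part of the interferon-stimulated complex ISGF3, at 7.19 on both arrays. The differences of the 3 other genes were thus 0.52, 0.03 and 0.00, beside 1.32 for Psme1 and -0.21 for Psme2.

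On chromosome 17 the inducible subunits lie in the MHC region in the order H2-DMb2, H2-DMb1, Psmb9, Tap1, Psmb8, Tap2. Tap1 and Tap2 encode the subunits of the peptide transporter. Tap1 stood at 8.58 in air against 8.52 in smoke, differing by -0.06, and Tap2 at 5.73 and 6.48, differing by 0.75. H2-DMb1 and H2-DMb2, subunits of the class II peptide-loading chaperone, had differences of 0.65 and 1.20. Psmb9 and Psmb8, between them, were at 0.32 and 0.12. Genes of this block thus differed by unequal amounts, and Psmb9 exceeded its neighbour Tap1 by 0.38.

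Constitutive subunits of the core particle were close to equal on both arrays. The 7 alpha ring genes, Psma1 to Psma7, had a median difference of -0.01, with 3 higher and 4 lower. Psma4 was highest, at 10.65 in air against 10.99 in smoke, differing by 0.34. Psma5 was lowest, at 7.40 and 7.15, differing by -0.25. Between them lay Psma6 (0.21), Psma3 (0.13), Psma7 (-0.01), Psma2 (-0.05) and Psma1 (-0.12). Psma6 adjoins Nfkbia, the NF-kB inhibitor gene, which stood at 10.57 in air against 12.00 in smoke, differing by 1.43.

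The 6 measured beta ring genes had a median of 0.12, with 4 higher and 2 lower. Psmb3, a structural subunit without a peptidase site, stood at 9.49 in air against 10.01 in smoke, differing by 0.52. Psmb4, also structural, stood at 9.01 and 8.64, differing by -0.37. The remaining differences were 0.23 for Psmb7, 0.14 for Psmb1, 0.10 for Psmb6 and -0.08 for Psmb2. None of the 13 core genes reached 1.5-fold, while 14.5% of all genes above the filter were higher and 9.19% lower by as much.

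Among the regulatory particle genes, the ATPases had a median below 0 and the other subunits one above it. The 6 ATPases, Psmc1 to Psmc6, had a median of -0.095, with 3 higher and 3 lower. Psmc1 stood at 7.95 in air and 7.56 in smoke, and Psmc3 at 10.21 and 9.82, each a difference of -0.39. Psmc4 was at -0.24, while Psmc2 and Psmc6, both at 0.05, and Psmc5, at 0.11, were higher as deposited but lower or equal under quantile normalization and centring by level.

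The 11 base and lid subunits that are not ATPases had a median of 0.21, with 8 higher and 3 lower. At 1.5-fold 3 of the 11 were higher, against 14.5% of all genes above the filter. Of the 3, 2 were under 1.5-fold once quantile normalized or centred by level, where 12.3% and 12.6% of all genes were past it. Psmd13, a lid subunit, had the largest difference of the 11, at 10.59 in air against 11.38 in smoke, differing by 0.79 or 1.73-fold. Psmd4, a ubiquitin receptor of the base, stood at 8.35 and 8.97, differing by 0.62, or by 0.50 under quantile normalization. Psmd2, the base scaffold that docks shuttle proteins, stood at 11.52 and 12.13, differing by 0.61, or by 0.47 under quantile normalization. Among the 500 genes nearest in level, 6.60% had a difference at least as large as that of Psmd13, 13.2% as that of Psmd4 and 11.8% as that of Psmd2.

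Other lid and base subunits were within 1.5-fold. Psmd6 and Psmd11, both of the lid, had differences of 0.47 and 0.46, with signals of 7.41 and 7.88 for Psmd6 and of 10.68 and 11.14 for Psmd11. Psmd1, a base scaffold, was at 0.21, and Psmd14, the deubiquitinase of the lid, at 0.10 from 6.73 in air. Psmd12 (0.09) and Psmd3 (-0.01) were near 0. Psmd7, the partner of Psmd14, was at -0.22, and Psmd8 was the lowest, at 10.27 in air against 9.98 in smoke, differing by -0.29. Sirt3, the mitochondrial deacetylase gene next to Psmd13, was at 6.87 and 6.72, differing by -0.15.

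A further sequence feature was shared by many members outside the inducible set. CCGGAAG, searched on both strands, occurred in a window of 16 of the 42 members with a window (38.1%). Among the 16 were Psmd13, Psmd4, Psmd2, Psmd6 and Psmd11, the 5 highest of the non-ATPase group. Over the 39 members above the filter with a window the share was 38.5%, against 19.6% of all 8473 such genes and 9.93% of all 27025 genes with a window. The 5 matches are shown with 30 bases each, taken from chr7:140882378-140882407 (Psmd13, plus strand), chr3:95042720-95042749 (Psmd4, minus strand), chr16:20651616-20651645 (Psmd2, plus strand), chr14:14120971-14121000 (Psmd6, minus strand) and chr11:80428594-80428623 (Psmd11, plus strand).
Psmd13: gcccgcggtgCCGGAAGtgagcgagcactt
Psmd4: tacagctgttCCGGAAGctgctgcgaaggt
Psmd2: ccgcagggcgCTTCCGGtctggaggacaac
Psmd6: agagacgcgaCCGGAAGtcagactggcggc
Psmd11: gagggcgggtCTTCCGGgtgtgtgtttccg
The 15 genes above the filter with this motif had a median difference of 0.12, with 12 of the 15 higher. Of all genes above the filter 54.3% were higher. Under quantile normalization Psmc2, Psmc6, Psmd12, Psme3ip1 and Psmg1, which carry the motif, turned lower, so the count depended on the scaling. Psmc1, Psme3 and Psmc3ip also carry the motif and had differences of -0.39, -0.45 and -0.49, so members with it lay on both sides of 0. Over all genes above the filter the median was 0.09 with the motif and 0.05 without it. TGACNNNGC, the letters bound by the NRF factors that control proteasome genes, occurred in 12.8% of the 39 and in 16.5% of all such genes. CCAAT occurred in 38.5% and 42.9%, and TTCNNNGAA in 7.69% and 8.40%.

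Activators and the inhibitor outside the inducible set included the lowest member. Psmf1, which encodes PI31, a protein that inhibits the core particle in the test tube and helps to transport it in cells, stood at 12.92 in air and 12.10 in smoke. The difference of -0.82 was 1.77-fold lower, and 10 of the 500 genes nearest in level had a difference at least as low. Psme3, the nuclear PA28 gamma activator, stood at 11.39 and 10.94, differing by -0.45. Psme4, the activator PA200 of the nucleus, stood at 10.63 and 10.91, differing by 0.28.

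Of the 7 assembly chaperones 5 were above the filter, with a median of 0.01, 3 higher and 2 lower. Psmg2, which pairs with Psmg1 to start the alpha ring, stood at 8.83 in air against 8.44 in smoke, differing by -0.39, while Psmg1 stood at 9.65 and 9.77, differing by 0.12. The base chaperones Psmd5, Psmd9 and Psmd10 had differences of 0.20, 0.01 and -0.21. Psmg3 (2.57 in air, 2.43 in smoke) and Psmg4 (3.53 and 3.19) were below the filter. So were Psma8, the testis alpha subunit, at 2.32 and 2.20, and Psmb11, the thymus beta subunit, at 2.97 and 2.84. Partner proteins matched by the name rule are not subunits: Psme3ip1 was at 10.25 and 10.35, and Psmc3ip, a meiotic recombination protein, at 6.21 and 5.72, differing by -0.49.

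**Figure D3:**
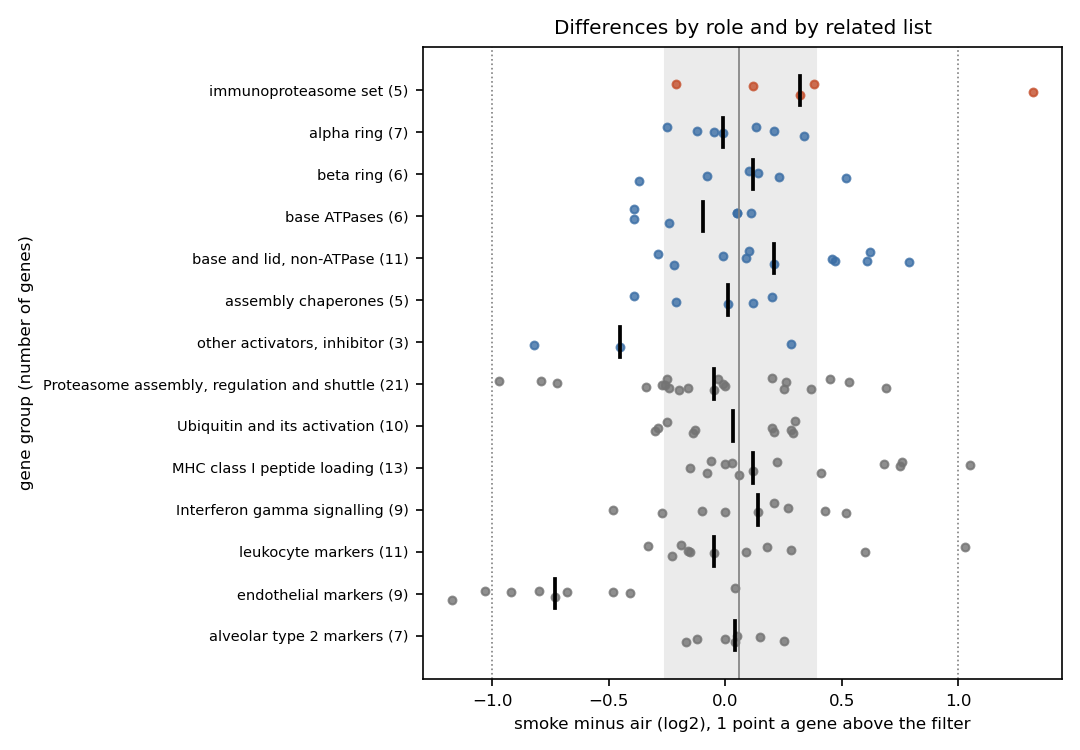
Smoke minus air (log2, horizontal axis), 1 point for each gene above the filter, by role of the proteasome genes (orange and blue), related lists and cell type markers (grey), with group sizes in brackets (vertical axis). Black bars are group medians, the shaded band is the middle 50% of all genes above the filter with its median of 0.06, and dotted lines mark 2-fold. The inducible set has a median of 0.32 with Psme1 far to the right, and the endothelial markers a median of -0.73.

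Related genes of the pathway were read from fixed lists. Of 25 listed genes for proteasome assembly, regulation and substrate delivery 21 were measured, with a median of -0.05, 7 higher, 13 lower and 0 past 2-fold. Rad23b and Ubqln2, shuttle proteins that carry ubiquitinated substrates, had differences of -0.97 and -0.79, with signals of 12.82 and 11.85 for Rad23b. Sem1, the small lid subunit whose symbol lies outside the name rule, stood at 9.91 in air against 9.19 in smoke, differing by -0.72. On the higher side were Usp14, a deubiquitinase of the regulatory particle, at 6.02 and 6.71, and Vcp, the unfoldase that extracts ubiquitinated proteins, at 10.26 and 10.79. Pomp, the chaperone of core maturation, was at 8.05 and 8.42. Nfe2l1, the transcription factor that raises proteasome genes when the proteasome is impaired, was at 14.95 and 14.94. Adrm1, a ubiquitin receptor of the base, was not analysed here.

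Of 16 listed genes for ubiquitin and its conjugation 11 were measured and 10 were above the filter. Of these 5 were higher and 5 lower, with a median of 0.035, and 0 reached 1.5-fold. Among all genes above the filter 14.5% were higher and 9.19% lower by 1.5-fold or more. The differences ran from -0.30 for Ube2d2a to 0.30 for Ube2d3, both ubiquitin-conjugating enzymes.

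MHC class I peptide loading had 13 of 15 genes measured, with a median of 0.12, 9 higher, 3 lower and 1 past 2-fold. Among all genes above the filter 54.3% were higher and 3.94% at least 2-fold higher. H2-Q4, a class Ib gene whose probes may also read related class I genes, stood at 8.53 in air against 9.58 in smoke, differing by 1.05. It was under 2-fold at 0.93 after quantile normalization and at 0.975 centred by level. Tapbp, the tapasin that bridges TAP and class I molecules, stood at 11.38 and 12.14. Pdia3, a loading chaperone, was at 12.67 and 13.35. H2-K1, a classical class I chain, was at 16.35 and 16.27, and B2m, its light chain, at 18.33 on both arrays. At 1.5-fold 4 of the 13 were higher, which were H2-Q4, Tapbp, Tap2 and Pdia3, against 14.5% of all genes above the filter.

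Interferon gamma signalling had 16 of 17 genes measured and 9 above the filter, with a median of 0.14, 5 higher and 3 lower. None reached 1.5-fold, against 14.5% and 9.19% of all genes above the filter. Ifngr2, a receptor chain, stood at 9.60 in air and 10.12 in smoke, and Irf2, which competes with Irf1, at 10.24 and 10.67. Irf1, the factor that induces the immunoproteasome genes, was at 11.09 and 11.36. Gbp3, an interferon-induced GTPase, was at 4.84 and 4.36, while its relative Gbp2, below the filter on both arrays, was at 3.58 and 4.50. Jak2, a receptor kinase, was at 10.75 and 10.48. Ifng itself was below the filter, at 3.59 and 3.39. Nlrc5 was not analysed here.

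The labelled cells were checked against markers. Sftpc and 4 other type 2 markers of 12 reached the upper limit of 19.93 in air and in smoke, and the 7 that could be measured had a median difference of 0.04. Epcam was at 11.09 in air and 10.92 in smoke. Leukocytes carry immunoproteasomes at rest, so their markers stand beside the inducible set. Of 21 measured leukocyte markers 11 were above the filter, 5 higher and 6 lower, with a median of -0.05. The summed linear signal of the 21 was 4252 in air and 4682 in smoke. The largest part of both sums came from 1 gene, Laptm5, at 11.37 and 11.55 on the log2 scale. Ptprc, the leukocyte antigen CD45, was at 7.64 and 7.59. Highest in difference among the 11 above the filter were Cd3d, of the T cell receptor complex, at 3.63 and 4.66, and Csf3r, the G-CSF receptor, at 8.12 and 8.72. Lowest in difference among these 11 were Cd4, at 6.61 and 6.28, and Mrc1, at 8.82 and 8.59. Endothelial markers were lower in smoke in 8 of 9 cases, with a median of -0.73, Pecam1 at 10.70 and 9.97, and a summed linear signal of 39322 and 24680. For comparison, 4660 of all 10419 genes above the filter were lower, and 2.48% were at least 2-fold lower. Fibroblast and smooth muscle markers above the filter were lower in 4 of 7 cases, 2 of them at least 2-fold. These 2 were Col1a1 (-1.18) and Pdgfrb (6.09 in air, 5.09 in smoke). Higher in smoke were Col3a1 (0.63), Dcn (0.38) and Acta2 (0.22). Club and ciliated markers were lower in 3 of 5 cases, 2 of them at least 2-fold, which were Scgb3a1 (-1.83) and Tppp3 (-1.44). Scgb3a2 (0.60) and Dynlrb2 (0.35) were higher. The club cell gene Scgb1a1 read 19.93, the highest value possible, in air and in smoke. The part of these cells in the proteasome values was not tested, and fewer cells of a type and less RNA per cell cannot be told apart in such samples.

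The genes past 1.5-fold were read again under other treatments of the signals. Psme1 was 1.27 after quantile normalization and Psmf1 was -0.97. Psmd13 was 0.71, still past 1.5-fold. Psme2 stayed lower in smoke, at -0.33 after quantile normalization.

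**Figure D4:**
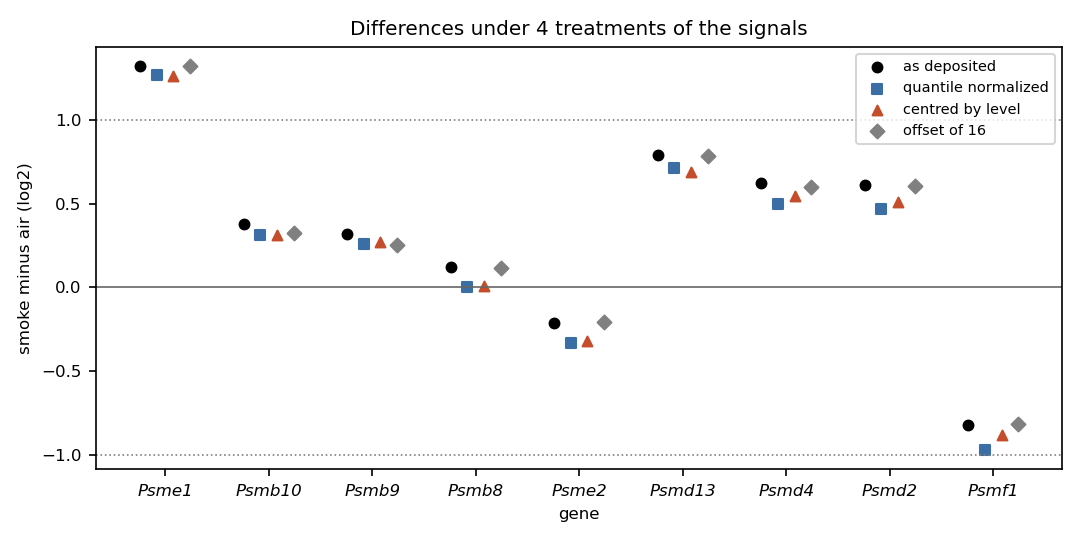
Smoke minus air (log2, vertical axis) of the 5 inducible genes and of the other genes past 1.5-fold (horizontal axis) as deposited, after quantile normalization, centred on genes of like level, and after adding 16 to the linear signals. Psme1 stays between 1.26 and 1.32, above the dotted line at 2-fold, and Psmb8 falls to 0.00 under quantile normalization.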

How the data were processed

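Total RNA of the sorted cells was Trizol-extracted, labelled with biotin and read on Clariom S Mouse arrays from Affymetrix, per the labels' protocols. The authors deposited 1 log2 signal for each of 22206 table entries and array, read as log2 from the values, which run from 1.55 to 19.93. The software was Transcriptome Analysis Console, per the submitters' processing notes. Not given in the sources used here are its settings, background correction, normalization and build. Array medians were 4.61 (air) and 4.53 (smoke).

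Entries were named through the platform annotation: 19572 had 1 symbol, 0 had several and 2634 had none. All 19572 matched RefSeq (GRCm38.p6) by Entrez number. Signals of the 55 genes with several entries were averaged. Genes past the filter (brighter array at or above 4.57) and below the upper limit of 19.93 numbered 10419. Level bins were 20 of equal size. Scripts used Python 3.11.15, numpy 2.4.6, pandas 2.3.3 and matplotlib 3.10.9 and were tested on simulated data.

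The members and lists were chosen with earlier results of these data known. By rule the inducible set, members past 1.5-fold, the extremes of each role and of each list, and defining genes were picked. Some of the list extremes picked in this way are not named in the text. The remaining members were added to account for all 50, and neighbours, list genes past 1.5-fold and genes below the filter were chosen after their values were seen. Alternatives were quantile normalization, centring by level, an offset of 16, the brightest entry for genes with several, and 3 other filters.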

Additional observations from a re-analysis of the deposited data

How the results depend on the processing

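Of 84 comparisons of group results with an alternative, 9 moved by more than a set tolerance, which was 1.5 times for a count and, for a median, the robust SD of all differences divided by the square root of the number of genes. The 75 others moved less or not at all. Under quantile normalization the median difference was -0.02 over all members, -0.045 over the members outside the inducible set and -0.1625 over the assembly and delivery list, 17 members were higher, and 2 were at least 1.5-fold higher. Centred by level the medians were -0.01 over all members and -0.025 over those outside the inducible set, and 2 members were at least 1.5-fold higher. Without a filter the ubiquitin list had a median of -0.13. Within that tolerance, 20 members were higher when centred by level, the interferon gamma list had a median of 0.035 under quantile normalization, and the inducible set had a median of 0.12 with the filter at the 75th percentile, which leaves 3 of its genes. The counts of 1 member at least 2-fold higher and 0 lower held under every alternative. Of the 50 members 40 kept their sign under the 4 alternatives that can move a single gene, and 10, all with differences up to 0.13, did not. Among named genes that are no members, Cd3d was 0.54 with the offset. No paired analysis was possible because each group has 1 array. Leaving out an array was not possible for the same reason, and without detection calls the limit set by background is unknown.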
